A study of Mus musculus with 7 samples.

Results

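The extracellular matrix between kidney cells holds, besides collagens, a set of secreted glycoproteins and proteoglycans. The transcripts of 38 such genes were examined here, chosen by name: 8 small leucine-rich proteoglycans and relatives, 12 components of elastic fibres and microfibrils, 4 enzymes and helpers of collagen and elastin crosslinking or processing, 10 adhesive and matricellular glycoproteins, 3 large proteoglycans, and Mgp, an inhibitor of calcification. Each of the 38 symbols matched 1 of the 42256 identifiers in the deposited count table. RNA came from whole kidneys of adult males, 4 labelled CDH11-/- and 3 labelled CDH11+/+ for cadherin-11, which joins mesenchymal cells to each other, and all of mixed 129S1/Sv x C57BL/6 strain background. Every mouse had lost 1 kidney (uninephrectomy) and received angiotensin II at 800 ng/kg/min by osmotic pump until its death 4 weeks after surgery. No uninjured kidney was analysed here, so a difference that preceded injury and a different response to injury cannot be told apart. The question was whether matrix transcripts differ between injured kidneys of the labelled genotypes.

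Fibrous and interstitial matrix accumulates in hypertensive kidney injury. Fibronectin and periostin give cells an adhesive scaffold, small leucine-rich proteoglycans such as decorin and lumican bind collagen fibrils and regulate their assembly, and fibrillin microfibrils carry elastin and hold latent growth factors. Lysyl oxidases crosslink collagen and elastin, while perlecan (Hspg2) and agrin (Agrn) are heparan sulfate proteoglycans of basement membranes, including that of the glomerulus.

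The libraries held 72087906 to 84786351 counts each. Cdh11 itself was at 11.3, 9.56, 11.6 and 10.98 CPM (counts scaled to a common library size) in the libraries labelled CDH11-/-, against 6.79, 4.52 and 10.8 CPM in those labelled CDH11+/+. Its log2 fold change was 0.56 (SE 0.25, edgeR adjusted p = 0.14), and without wild-type-labelled replicate 3 it was 0.93 (edgeR adjusted p = 0.0043), higher in the knockout-labelled libraries, or 0.30 without wild-type-labelled replicate 2 (0.245). With limma-voom it was 0.75 (adjusted p = 0.0227) and with 1 surrogate variable 0.62 (edgeR adjusted p = 0.0099). DESeq2 gave 0.55 (adjusted p = 0.0607) and the deposited normalized values gave 0.24 (limma adjusted p = 0.665). The transcript does not bear out the labels, and the labels do not describe the allele. Directions below are therefore between libraries by their label, called knockout-labelled and wild-type-labelled. Wild-type-labelled replicate 3 stood apart in the summed level of 4 Y-linked genes (Ddx3y, Eif2s3y, Kdm5d and Uty), at 64.7 CPM against 110.8 to 144.9 CPM in the other libraries. Wild-type-labelled replicate 2 stood apart in the matrix genes themselves, as described below. Mitochondrial ribosomal RNA took 10.7% to 13.5% of counts in knockout-labelled and 13.5% to 18.2% in wild-type-labelled libraries. Each called gene is therefore given with the effect of leaving out single libraries.

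Few of the matrix genes were called between the labelled genotypes. All 38 passed the filter on low counts. At an adjusted p under 0.05 (edgeR's quasi-likelihood test, Benjamini-Hochberg adjustment over 17964 genes), 5 rose, 1 fell and 32 were not called in knockout-labelled kidneys. The called share was 15.8%, where 29.7% of all genes tested were called. The 38 genes also varied more within groups. Their median CV (SD over mean) was 18.7% among knockout-labelled and 32.9% among wild-type-labelled libraries, against 9.7% and 10.6% over all genes tested. A gene that was not called may therefore still differ. Other fits changed the count, as given in the closing section. It ran from 1 higher without wild-type-labelled replicate 1 (20.8% of all genes called) to 11 higher with 1 surrogate variable (31.2%). By direction, 13.2% of the matrix genes rose and 2.63% fell, against 16.8% and 12.9% of all genes tested. Those that rose were Mgp, Agrn, Fbn1, Mfap4 and Dpt, and Lox fell. The median log2 fold change of the 38 genes was 0.08, with 23 positive and 15 negative, against a median of -0.01 over all genes tested. In 8 of the 38 (21.1%) every knockout-labelled library lay above every wild-type-labelled one and in 0 of the 38 below, where this held for 21.9% and 16.6% of all genes tested (38.5% in either direction). In bulk tissue, fewer cells of a type and less RNA per cell cannot be told apart.

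**Figure D1:**
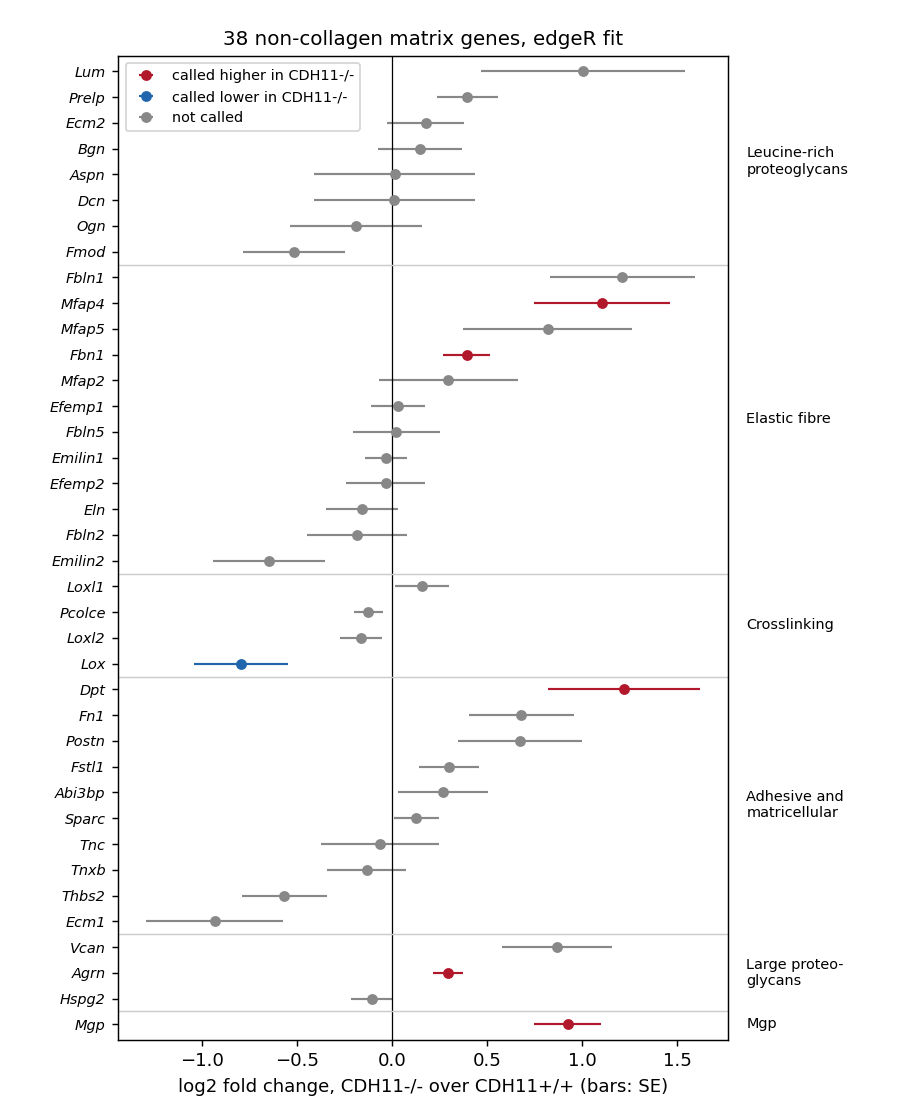
Log2 fold change of the 38 matrix genes, libraries labelled CDH11-/- (n = 4) over those labelled CDH11+/+ (n = 3), grouped by role, with bars for the SE from the edgeR fit. The 5 genes that rose are red, Lox is blue, and the 32 that were not called are grey and lie on both sides of 0.

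Promoter sequence is shown for the genes that rose and have an entry in the RefSeq promoter table (GRCm38.p6), namely Agrn, Fbn1 and Dpt, so that what they do and do not share can be read. The windows are the 250 bases before the start given in that table, read on the gene's strand, and capitals mark matches to 4 short motifs on either strand: TATAAA (the TATA box), TGANTCA (the AP-1 site), GGAATG (the TEAD site) and GGGCGG (the GC box). Agrn has a pair of windows in the table, of which the one with more matches is shown, chr4:156197489-156197738 on the minus strand. The window of Fbn1 is chr2:125506439-125506688 on the minus strand and that of Dpt is chr1:164796413-164796662 on the plus strand. The GENCODE M21 annotation places some starts differently. It starts Fbn1 at 125507993, so that the window lies within that gene model, and Dpt at 164796644, within its window.
Agrn: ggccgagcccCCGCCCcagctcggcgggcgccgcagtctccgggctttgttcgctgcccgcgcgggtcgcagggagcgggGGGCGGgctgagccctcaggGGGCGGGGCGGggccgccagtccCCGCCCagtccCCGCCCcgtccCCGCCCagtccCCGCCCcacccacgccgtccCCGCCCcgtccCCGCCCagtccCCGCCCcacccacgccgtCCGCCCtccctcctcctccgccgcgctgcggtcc
Fbn1: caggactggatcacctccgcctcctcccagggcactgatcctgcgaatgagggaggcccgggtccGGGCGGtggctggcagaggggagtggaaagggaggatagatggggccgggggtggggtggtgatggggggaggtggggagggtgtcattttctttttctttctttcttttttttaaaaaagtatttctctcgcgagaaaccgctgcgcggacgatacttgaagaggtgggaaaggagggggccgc
Dpt: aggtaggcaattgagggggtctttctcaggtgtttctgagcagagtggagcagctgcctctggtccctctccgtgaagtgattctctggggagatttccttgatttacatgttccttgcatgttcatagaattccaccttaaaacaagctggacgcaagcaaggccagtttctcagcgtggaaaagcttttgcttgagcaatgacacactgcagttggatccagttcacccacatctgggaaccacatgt
The Agrn window shown is 83.6% G and C with 12 GC box matches, some of them overlapping, and its other window (chr4:156186260-156186509) is 60.8% G and C with 2. The window of Fbn1 is 59.2% G and C with 1 GC box match, and that of Dpt is 48.8% G and C with no match to any of the 4 motifs. Over all 32851 promoter windows of this length, GGGCGG was present in 32.7%, TATAAA in 12.4%, GGAATG in 12.6% and TGANTCA in 6.75%. Of the 27 matrix genes with a promoter entry, 17 had GGGCGG, 6 TATAAA, 3 GGAATG and 3 TGANTCA in at least 1 window. Counted by window, as over all promoters, 21 of their 36 windows had GGGCGG, 7 TATAAA, 3 GGAATG and 3 TGANTCA. A match describes these letters and is not evidence of a bound site.

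Mgp, matrix Gla protein, keeps vessel walls and cartilage from calcifying and showed the smallest adjusted p of the 38 genes. Knockout-labelled kidneys had 64.2, 56.0, 56.4 and 54.0 CPM, against 35.7, 20.97 and 34.5 CPM in wild-type-labelled ones. Every knockout-labelled kidney was above every wild-type-labelled one. Means were 57.6 ± 4.48 CPM in knockout-labelled kidneys (SD, n = 4) and 30.4 ± 8.18 CPM in wild-type-labelled ones (SD, n = 3), a 1.90-fold rise (log2 fold change 0.92, SE 0.18, edgeR adjusted p = 0.0062). Mgp was the only one of the 38 genes called in all 15 alternative fits, its adjusted p reaching at most 0.0189 when any single library was left out.

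Among the large proteoglycans Agrn rose and Hspg2 and Vcan did not pass the test. Agrin stood at 174.7, 154.0, 159.6 and 166.3 CPM in knockout-labelled kidneys, against 128.4, 124.7 and 147.2 CPM in wild-type-labelled ones. The groups did not overlap, and the rise was small (1.23-fold, log2 fold change 0.29, SE 0.08, edgeR adjusted p = 0.0185). Agrn was no longer called when wild-type-labelled replicate 1 (edgeR adjusted p = 0.0805) or 2 (0.0677) was left out. Hspg2, the most abundant of the 38 by CPM, was at 225.4, 174.2, 194.6 and 171.8 CPM in knockout-labelled kidneys, against 203.8, 188.2 and 226.8 CPM in wild-type-labelled ones. Its groups overlapped (log2 fold change -0.11, SE 0.11, edgeR adjusted p = 0.487), so the pair of basement membrane proteoglycans had unlike estimates, although the difference between them was not tested. Vcan, which encodes the hyaluronan-binding proteoglycan versican, was at 2.67, 1.96, 2.22 and 2.97 CPM in knockout-labelled kidneys, against 1.40, 0.749 and 1.87 CPM in wild-type-labelled ones. The groups did not overlap, with replicate 2 of the knockout-labelled and replicate 3 of the wild-type-labelled libraries close to each other, and the test missed the threshold (log2 fold change 0.87, SE 0.29, edgeR adjusted p = 0.051). Vcan was called without wild-type-labelled replicate 3 (edgeR adjusted p = 0.0147) and not without any other single library (0.061 to 0.123).

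**Figure D2:**
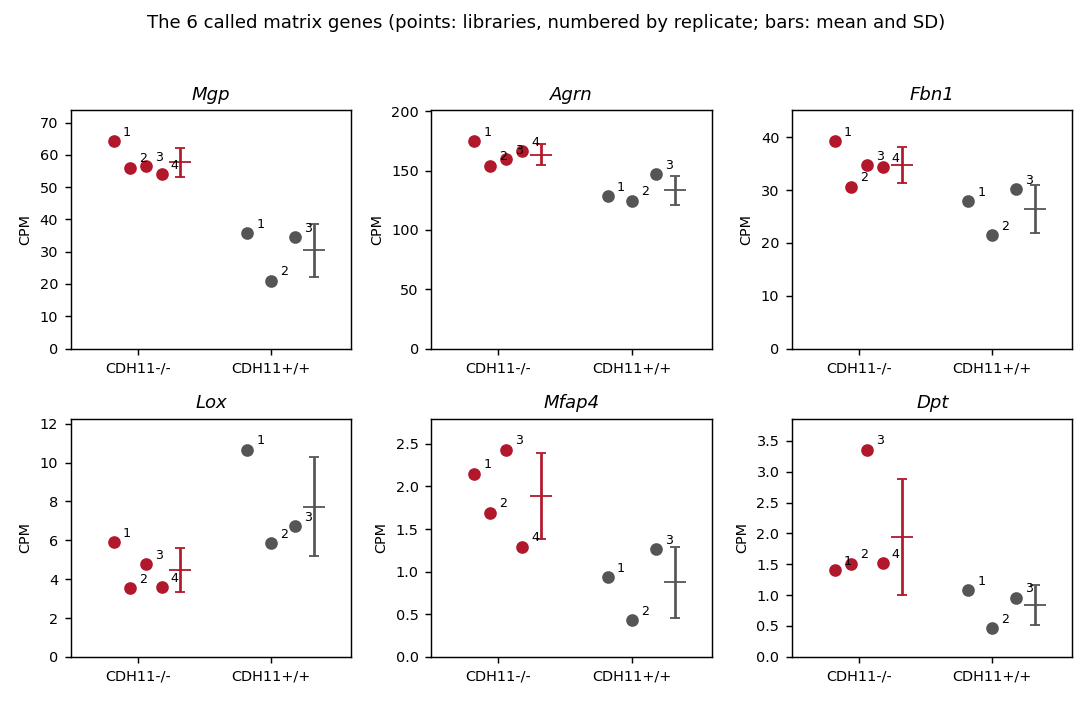
CPM of the 6 called matrix genes in each library labelled CDH11-/- (left, red) and CDH11+/+ (right, grey), numbered by replicate, with bars for the mean and SD. The groups are apart for all but Lox, where knockout-labelled replicate 1 (5.92 CPM) lies just above wild-type-labelled replicate 2 (5.85 CPM), and replicate 3 sets the knockout-labelled mean of Dpt.

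In the elastic fibre group 2 of 12 genes rose (16.7%), 0 fell and 10 were not called. Of all genes tested 16.8% rose and 12.9% fell. Fbn1, which encodes fibrillin-1, the backbone of microfibrils, was at 39.2, 30.7, 34.7 and 34.4 CPM in knockout-labelled kidneys, against 27.9, 21.4 and 30.1 CPM in wild-type-labelled ones. The groups were barely apart, with the lowest knockout-labelled library at 30.7 CPM and the highest wild-type-labelled one at 30.1 CPM (1.31-fold, log2 fold change 0.39, SE 0.12, edgeR adjusted p = 0.0401). It was called without wild-type-labelled replicate 3 (edgeR adjusted p = 0.0239) or knockout-labelled replicate 2 (0.0418) and not without any of the other 5 (0.0737 to 0.0948). Fbn1 shares 2442 exon bases with Gm9913 on the opposite strand, and how the counting treated strand is not known. Opposite-strand overlaps were shorter for Mfap4 (89 exon bases with Mapk7), Lox (30 with an antisense gene), Fn1 (292), Eln (267) and Prelp (350).

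Mfap4, a microfibril-associated protein of vessel walls, was at 2.15, 1.69, 2.43 and 1.29 CPM in knockout-labelled kidneys, against 0.935, 0.428 and 1.26 CPM in wild-type-labelled ones. Knockout-labelled replicate 4 and wild-type-labelled replicate 3 nearly met (2.15-fold, log2 fold change 1.11, SE 0.36, edgeR adjusted p = 0.0451). The call held without wild-type-labelled replicate 3 (edgeR adjusted p = 0.0204) or knockout-labelled replicate 4 (0.0364) and was lost without each of the others (up to 0.112). Fbln1, which encodes fibulin-1, a binder of fibronectin and elastic fibres, was at 9.74, 7.77, 11.6 and 6.57 CPM in knockout-labelled kidneys, against 4.52, 1.70 and 5.32 CPM in wild-type-labelled ones. These groups did not overlap either, yet its adjusted p was just above the threshold (log2 fold change 1.21, SE 0.38, edgeR adjusted p = 0.050004). Fbln1 was called without wild-type-labelled replicate 2, with a smaller log2 fold change of 0.86 (edgeR adjusted p = 0.0301), and not without any other single library (0.0517 to 0.109).

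Eln, the gene of elastin itself, was not called, at 20.8, 13.6, 12.3 and 12.6 CPM in knockout-labelled kidneys, against 16.9, 14.4 and 18.3 CPM in wild-type-labelled ones (log2 fold change -0.16, SE 0.19, edgeR adjusted p = 0.563). Without knockout-labelled replicate 1, the highest, Eln was called lower (log2 fold change -0.37, edgeR adjusted p = 0.0301). It was not called without any other single library (edgeR adjusted p of 0.44 to 0.809). Fbln5, a fibulin needed for elastic fibre assembly, was the most abundant of this group by CPM. Its levels were 83.5, 91.2, 94.0 and 64.0 CPM in knockout-labelled and 64.5, 66.3 and 114.7 CPM in wild-type-labelled kidneys, where replicate 3 alone was high (log2 fold change 0.02, SE 0.23, edgeR adjusted p = 0.952). The remaining 7 genes, Fbln2, Efemp1, Efemp2, Mfap2, Mfap5, Emilin1 and Emilin2, had estimates from -0.65 (Emilin2) to 0.82 (Mfap5). Mfap5 rested on only 27 to 45 counts per knockout-labelled library and 7 to 32 counts per wild-type-labelled one.

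Lox was the single gene that fell. It encodes lysyl oxidase, which crosslinks collagen and elastin, and was at 5.92, 3.53, 4.78 and 3.58 CPM in knockout-labelled kidneys, against 10.7, 5.85 and 6.71 CPM in wild-type-labelled ones. Wild-type-labelled replicate 1 was the highest by far, and the groups overlapped slightly. Means were 4.45 ± 1.13 CPM in knockout-labelled kidneys (SD, n = 4) and 7.74 ± 2.57 CPM in wild-type-labelled ones (SD, n = 3), with a log2 fold change of -0.79 (SE 0.25, edgeR adjusted p = 0.0426). The call held without wild-type-labelled replicate 2 (edgeR adjusted p = 0.0316) or knockout-labelled replicate 1 (0.022), and was lost without each of the others (up to 0.149). Its relatives Loxl1 and Loxl2, and Pcolce, an enhancer of procollagen processing, were not called, with log2 fold changes of 0.16, -0.16 and -0.13 and SEs of 0.14, 0.11 and 0.08. These were among the more tightly replicated of the 38 genes, as their mean levels of 18.2 to 59.3 CPM in wild-type-labelled kidneys varied with a CV of 5.39% to 20.2%.

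Of the 10 adhesive and matricellular genes 1 rose (10%), 0 fell and 9 were not called, where 16.8% of all genes tested rose and 12.9% fell. Dpt, which encodes dermatopontin, a small protein that binds decorin and collagen, was at 1.41, 1.51, 3.35 and 1.52 CPM in knockout-labelled kidneys, against 1.08, 0.468 and 0.959 CPM in wild-type-labelled ones. Knockout-labelled replicate 3 was more than the sum of any 2 others of its group (log2 fold change 1.22, SE 0.40, edgeR adjusted p = 0.0481). Without that library the log2 fold change was 0.82 (edgeR adjusted p = 0.0914), and the call held only without knockout-labelled replicate 1 (0.048), being lost without each of the other libraries (up to 0.124). Fn1, the fibronectin gene, was at 94.5, 82.3, 94.96 and 73.7 CPM in knockout-labelled kidneys, against 60.6, 30.1 and 71.0 CPM in wild-type-labelled ones. The groups were apart, but the spread among wild-type-labelled kidneys was wide and the test was not passed (1.603-fold, log2 fold change 0.68, SE 0.28, edgeR adjusted p = 0.112). Without wild-type-labelled replicate 2, the lowest, its log2 fold change was smaller, at 0.39, and its edgeR adjusted p was 0.046. It was not called without any other single library (0.0771 to 0.214).

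Sparc, a collagen-binding matricellular protein, was at 125.0, 104.9, 107.0 and 92.6 CPM in knockout-labelled and 109.6, 82.5 and 102.7 CPM in wild-type-labelled kidneys. Tnxb, the tenascin of connective tissue, was at 96.7, 80.9, 140.2 and 81.1 CPM in knockout-labelled kidneys, against 107.7, 93.5 and 126.9 CPM in wild-type-labelled ones. Both sets of values overlapped (log2 fold changes 0.13 and -0.13, edgeR adjusted p = 0.46 and 0.666). Ecm1, an extracellular matrix glycoprotein with a negative estimate of -0.93 (SE 0.36, edgeR adjusted p = 0.102), was at 35.8, 50.2, 63.4 and 52.3 CPM in knockout-labelled kidneys. Its wild-type-labelled values of 61.3, 71.5 and 155.8 CPM were led by replicate 3, without which the log2 fold change was -0.41 (edgeR adjusted p = 0.21). The other 5 genes, Postn, Tnc, Thbs2, Fstl1 and Abi3bp, had estimates from -0.57 (Thbs2, which encodes a thrombospondin) to 0.67 (Postn, which encodes periostin) and adjusted p-values from 0.0962 upward. Thbs2 was called lower without knockout-labelled replicate 1 (log2 fold change -0.83, edgeR adjusted p = 0.0013), and Postn higher without knockout-labelled replicate 2 (0.87, edgeR adjusted p = 0.0408). Neither was called without any other single library (edgeR adjusted p of 0.124 to 0.217 for Thbs2 and 0.15 to 0.366 for Postn).

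None of the 8 small leucine-rich proteoglycans and relatives was called by edgeR, where 29.7% of all genes tested were. Of the 8, 1 had an unadjusted p under 0.05 (Prelp). DESeq2 also called 0 of the 8, while limma-voom (adjusted p = 0.0439) and the fit with 1 surrogate variable (edgeR adjusted p = 0.0171) called Prelp. Bgn, the biglycan gene and the most abundant of this group, was at 153.3, 135.5, 156.3 and 125.8 CPM in knockout-labelled kidneys, against 123.0, 86.0 and 177.4 CPM in wild-type-labelled ones. The wild-type-labelled libraries spanned the whole range of the others (log2 fold change 0.15, SE 0.22, edgeR adjusted p = 0.653). Dcn, the decorin gene, was at 14.3, 18.6, 27.3 and 16.8 CPM in knockout-labelled kidneys, against 25.6, 8.08 and 23.6 CPM in wild-type-labelled ones, and its estimate was near 0 (log2 fold change 0.01, SE 0.42, edgeR adjusted p = 0.984).

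These genes partly sit side by side in the genome (mm10). Dcn and Lum lie on chromosome 10 within 93.1 kb, Ecm2, Aspn and Ogn on chromosome 13 within 119.7 kb, and Prelp and Fmod on chromosome 1 within 138.0 kb. Lum, the lumican gene next to Dcn, was at 1.41, 1.51, 1.57 and 1.19 CPM in knockout-labelled kidneys, against 1.19, 0.134 and 0.797 CPM in wild-type-labelled ones (log2 fold change 1.01, SE 0.54, edgeR adjusted p = 0.196). Its value in wild-type-labelled replicate 2 rested on 10 counts. Prelp had a log2 fold change of 0.40 (SE 0.16, edgeR adjusted p = 0.0963) and Fmod, the fibromodulin gene, one of -0.52 (SE 0.27, edgeR adjusted p = 0.188). Ecm2, Aspn and Ogn had 0.18, 0.01 and -0.19. Differences between neighbours were not tested.

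Read per length, the 38 genes spanned a 353-fold range of levels, from 38.7 CPM per kilobase of annotated exon for Mgp to 0.11 CPM per kilobase for Mfap5 (means of the 7 libraries). Ecm1, Sparc, Bgn and Agrn followed Mgp at 27.8, 27.3, 22.4 and 16.2 CPM per kilobase, and Postn, Emilin2 and Vcan stood just above Mfap5 at 0.22, 0.19 and 0.14. Mgp was at 48.6 ± 3.77 CPM per kilobase in knockout-labelled kidneys (SD, n = 4) and first of the 38 there. In wild-type-labelled kidneys it was at 25.6 ± 6.89 CPM per kilobase (SD, n = 3), below Ecm1 at 38.2 ± 20.6 and close to Sparc at 25.9 ± 3.72.

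**Figure D3:**
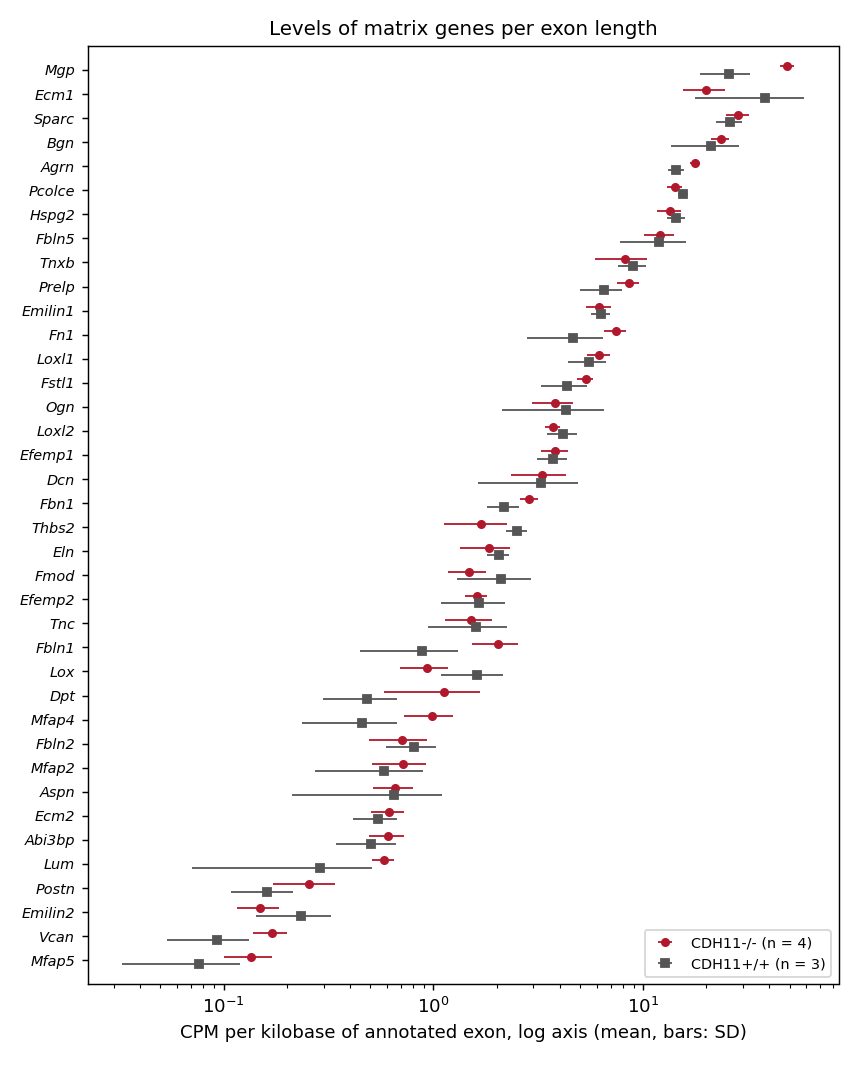
Level of each of the 38 matrix genes per kilobase of annotated exon (horizontal log axis, CPM per kilobase) in libraries labelled CDH11-/- (red circles) and CDH11+/+ (grey squares), mean with bars for the SD. Mgp, Ecm1, Sparc and Bgn lead and Mfap5 is lowest.

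These genes varied more among wild-type-labelled than among knockout-labelled libraries, a difference in spread that was not tested. Wild-type-labelled replicate 2 held the lowest value of all 7 libraries for 24 of the 38 genes (63.2%), where it did so for 16.8% of all genes tested. Among the wild-type-labelled libraries alone it was the lowest for 32 of 38 genes (84.2%), against 31.7% of all genes tested. Its level was a median of 0.61 times the mean of the other two wild-type-labelled libraries over the 38 genes, against 1.01 times over all genes tested. Lum, Mfap5, Aspn, Dcn and Fbln1 were lowest in it relative to the other two, by log2 differences of -2.89, -1.95, -1.70, -1.61 and -1.53, while Thbs2 was above them by 0.15 and was the highest there of all libraries. Wild-type-labelled replicate 3 was the highest of the wild-type-labelled libraries for 22 of the 38 genes (57.9%), against 38.3% of all genes tested. The order of wild-type-labelled replicates 2, 1 and 3 from lowest to highest held for 18 of the 38 (47.4%), against 20.5% of all genes tested. The median CV over the 38 genes was 18.7% among knockout-labelled and 32.9% among wild-type-labelled libraries, against 9.7% and 10.6% over all genes tested. In the other 102 tested matrix genes described below, wild-type-labelled replicate 2 was the lowest of all libraries for 39 (38.2%).

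**Figure D4:**
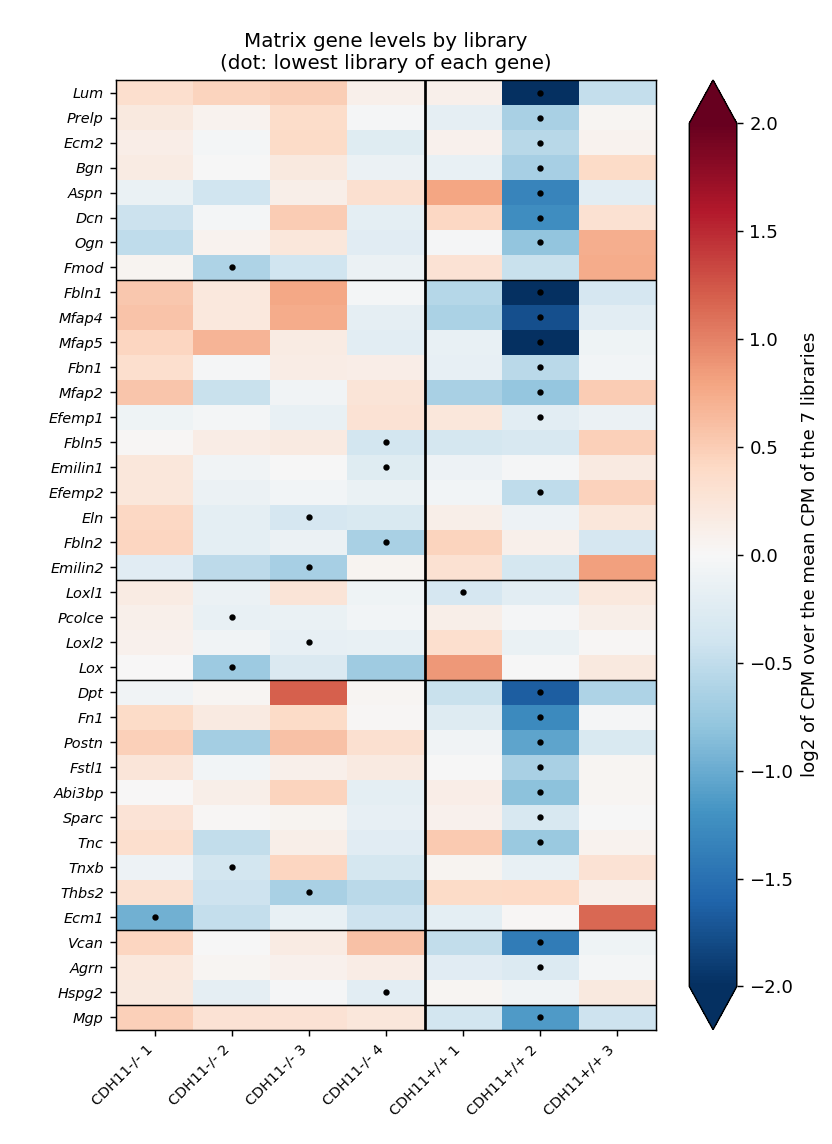
Level of each of the 38 matrix genes in each library as log2 of its CPM over the mean of the 7 libraries (colour, limits at -2 and 2), with libraries labelled CDH11-/- on the left and CDH11+/+ on the right, and a dot on the lowest library. The column of wild-type-labelled replicate 2 holds 24 of the 38 dots.

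**Figure D5:**
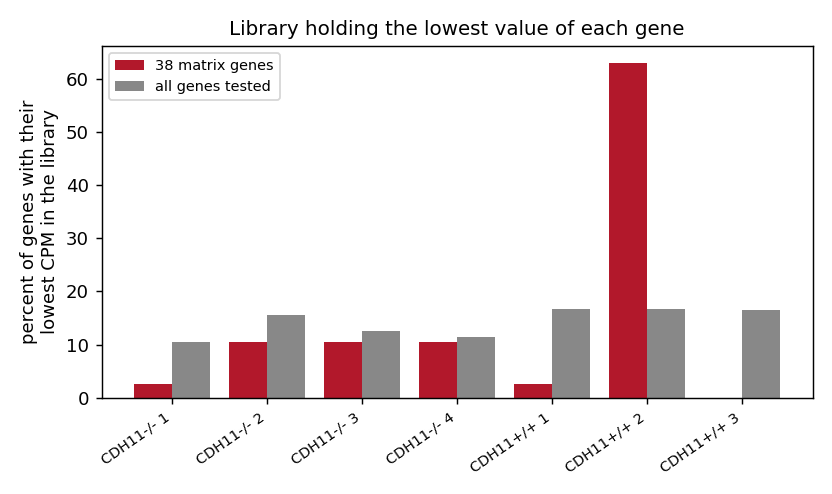
Percent of genes whose lowest CPM fell in each library, for the 38 matrix genes (red) and for all genes tested (grey), with libraries labelled CDH11-/- on the left. Wild-type-labelled replicate 2 holds 63.2% of the matrix genes and 16.8% of all genes, and wild-type-labelled replicate 3 none of the matrix genes.

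Leaving that library out changed which genes were called. Without wild-type-labelled replicate 2, 3 matrix genes rose (Mgp, Fbln1 and Fn1), 3 fell (Lox, Fmod and Emilin2) and the median log2 fold change was -0.05, with 23.0% of all genes called. Without wild-type-labelled replicate 3, 6 rose (Mgp, Agrn, Fbn1, Mfap4, Vcan and Prelp) and 0 fell, with a median of 0.27 and 29.3% of all genes called. Without wild-type-labelled replicate 1 only Mgp rose and none fell, with 20.8% of all genes called, against 29.7% with all 7 libraries.

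Summed markers of several cell types, though not all, differed between the labels. Those of fibroblasts and macrophages were lowest in wild-type-labelled replicate 2. The summed level of 13 fibroblast markers was 595.7 to 703.9 CPM in knockout-labelled and 381.1 to 557.9 CPM in wild-type-labelled libraries, with the minimum in wild-type-labelled replicate 2. Without Dpep1, which mouse proximal tubule also expresses, the sums were 522.7 to 626.5 CPM in knockout-labelled and 342.9 to 472.0 CPM in wild-type-labelled libraries. Of the 13, the collagens Col1a1 and Col3a1 rose and Scara5 fell, while Pdgfra, a defining marker, had 36.9 to 52.8 CPM in knockout-labelled and 33.6 to 68.9 CPM in wild-type-labelled libraries. Estimates were negative for Cd34, Meis1, Scara5, Pi16, Gli1, Pdgfra and Tcf21. They were positive for Col1a1, Col1a2, Col3a1, Dpep1, Ly6a and Clec3b. Ly6a, not called, held 179.7 to 239.6 CPM of the sum in knockout-labelled and 161.3 to 222.8 CPM in wild-type-labelled libraries. Of the smooth muscle and pericyte markers 5 of 11 fell (sums of 343.5 to 439.7 CPM in knockout-labelled and 384.8 to 493.3 CPM in wild-type-labelled libraries). Of the endothelial markers 5 of 9 fell (360.7 to 444.8 CPM in knockout-labelled and 489.7 to 610.6 CPM in wild-type-labelled libraries). Of the podocyte markers 4 of 6 fell (284.1 to 389.0 CPM in knockout-labelled and 425.5 to 524.4 CPM in wild-type-labelled libraries), and 0 rose in any of these lists. Collecting duct markers fell in 5 of 7 (311.1 to 368.7 CPM in knockout-labelled and 409.4 to 589.0 CPM in wild-type-labelled libraries) and thick limb and distal tubule markers in 2 of 7 (4372 to 4956 CPM in knockout-labelled and 6119 to 6700 CPM in wild-type-labelled libraries). Among all genes tested 12.9% fell and 16.8% rose. Of 9 proximal tubule markers 5 rose and 1 fell, and they summed to 13615 to 15276 CPM in knockout-labelled and 9045 to 10243 CPM in wild-type-labelled libraries. Macrophage markers were at 57.2 to 77.1 CPM in knockout-labelled and 29.2 to 75.7 CPM in wild-type-labelled libraries, with the minimum again in wild-type-labelled replicate 2, as was that of Cdh11. Of these 6 genes Csf1r alone was called, higher, and without it the sums were 19.2 to 29.5 CPM in knockout-labelled and 14.5 to 45.6 CPM in wild-type-labelled libraries, with negative estimates for 4 of the other 5. The part of these cell type markers in the matrix results was not tested.

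Other non-collagen matrix genes changed in both directions. Of 120 listed by family, 102 passed the filter, of which 20 rose, 17 fell and 65 were not called in knockout-labelled kidneys (36.3% called, against 29.7% of all genes tested). Their median log2 fold change was 0.04. The 8 with the smallest adjusted p were Vwa1, Fras1, Gpc4, Sdc2, Podn, Chst11, Gpc3 and Frem2, and all but Gpc3 rose. Vwa1, a perlecan-binding basement membrane protein, averaged 39.8 ± 3.47 CPM in knockout-labelled kidneys (SD, n = 4) and 13.8 ± 2.03 CPM in wild-type-labelled ones (SD, n = 3), a log2 fold change of 1.53 (edgeR adjusted p = 5.8e-05). Fras1 and Frem2, which together anchor epithelial basement membranes, rose by 1.01 and 0.87 on the log2 scale.

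Cell surface proteoglycans split. The glypican Gpc4 rose by 0.78 and the syndecan Sdc2 by 0.65 on the log2 scale, while the glypican Gpc3 was at 14.7 ± 1.79 CPM in knockout-labelled kidneys (SD, n = 4) and 26.0 ± 0.22 CPM in wild-type-labelled ones (SD, n = 3), a log2 fold change of -0.82 (edgeR adjusted p = 0.000418). Podn, a small leucine-rich proteoglycan outside the 38 genes, rose by 1.47 on the log2 scale (19.4 ± 1.85 CPM in knockout-labelled kidneys, SD, n = 4, and 7.01 ± 1.57 CPM in wild-type-labelled ones, SD, n = 3). Chst11, a chondroitin sulfotransferase, rose by 0.89. Of the 27 glycosaminoglycan synthesis genes, to which Chst11 belongs, 7 rose (25.9%) and 0 fell, against 16.8% and 12.9% of all genes tested. Crosslinking and collagen processing genes outside the 38 rose in 3 and fell in 4 of 12 tested (58.3% called, against 29.7% of all genes tested).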

How the data were processed

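RNA-seq of 7 kidneys was analysed. Per the labels, total RNA was extracted with Trizol and columns and made into NEBNext Ultra II Directional libraries. The authors' expected counts, estimated per gene by a transcript quantifier per the file headers, were deposited as whole numbers. DRAGEN, DESeq2 and mm10 are named in the submitters' processing notes. Versions, annotation, strand option and filters, not given in the sources used here, remain unknown. The deposited normalized signal equals counts times factors that vary between genes, and entered only 1 alternative.

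Symbols, positions and exon lengths came from GENCODE M21. Genes were filtered with filterByExpr (17964 kept), scaled by TMM and tested with edgeR 4.0.16 (R 4.3.3, quasi-likelihood, robust, 2-sided, no covariates), checked on simulated counts. No pair of the 7 libraries agreed within sampling noise (median chi-square per gene 2.61 to 11.9), so each counted as 1 sample. Groups came from the genotype label. The 38 genes, marker lists, other matrix list and tests were chosen with earlier results of these data known. Values in every library are given for genes called, genes whose groups do not overlap and the 6 highest by CPM, and for Lum, Dcn, Eln and Ecm1, which were picked after their values were seen. Alternatives used DESeq2 1.42.0, limma 3.58.1 and sva 3.50.0, and are listed in the closing section.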

Additional observations from a re-analysis of the deposited data

Results flagged for a closer look

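Each of the 38 matrix genes was examined in the 4 knockout-labelled libraries, by the gap of the end value to its neighbour over the range, against Dixon's critical value, which chance exceeds in about 1 in 20 groups. With 38 genes examined, 2 passed it, about as many as that share would give. Dpt stood at 3.35 CPM in knockout-labelled replicate 3, with a gap of 0.94 of the range, and Eln at 20.8 CPM in knockout-labelled replicate 1, with a gap of 0.84 of the range. Without knockout-labelled replicate 1 Eln was called lower (edgeR adjusted p = 0.0301).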

How the results depend on the processing

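No paired analysis was possible because replicate numbers follow the order of deposit. Against 5 matrix genes higher and 1 lower, with 29.7% of all genes called, DESeq2 gave 8 and 2 (33.4% of all genes), upper-quartile scaling 2 and 1 (29.9%), no filter 3 and 0 (19.3%), 1 surrogate variable 11 and 1 (31.2%), limma-voom 7 and 2 (32.1%), the deposited normalized values 5 and 0 (25.9%), a threshold of 0.1 8 and 2 (38.1%) and of 0.01 1 and 0 (15.5%). Leaving out each library gave 1 to 6 higher and 0 to 3 lower (20.8% to 29.3%). RLE scaling gave 5 and 1 (29.5%). A mean of at least 1 CPM, which 36 of the 38 genes reached, also gave 5 and 1 (36.8%), with Fbln1 in place of Fbn1. The median log2 fold change of 0.08 was 0.20 with limma-voom and -0.054 to 0.27 without single libraries, negative without wild-type-labelled replicate 2. Counts of the other matrix genes stayed within 1.5 times, at 16 to 25 higher and 13 to 17 lower without single libraries. The cause of these shifts was not tested.

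Signs turned for 11 of the 38 genes, none called in the fit that turned it (edgeR, limma or DESeq2 adjusted p of at least 0.292). With limma-voom Efemp1 was at -0.031, Efemp2 at 0.079, Emilin1 at 0.0031 and Ogn at 0.058, and with the deposited values Efemp1 was at -0.093, Emilin1 at 0.070 and Tnc at 0.025. Upper-quartile scaling put Aspn at -0.0032 and Dcn at -0.0046, a mean of at least 1 CPM put Dcn at -0.0019, and 1 surrogate variable put Efemp2 at 0.0081. Without single libraries the ranges were -0.36 to 0.65 for Aspn, -0.073 to 0.44 for Bgn, -0.35 to 0.27 for Dcn, -0.0064 to 0.27 for Ecm2, -0.074 to 0.16 for Efemp1, -0.24 to 0.25 for Efemp2, -0.12 to 0.045 for Emilin1, -0.40 to 0.014 for Fbln2, -0.13 to 0.34 for Fbln5, -0.49 to 0.26 for Ogn and -0.34 to 0.24 for Tnc. Mfap5 had the fewest counts of the 38 genes summed over libraries, at 7 to 45 per library.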

Other observations

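Urothelial markers (8 genes) summed to 4.6, 0.5, 14.3 and 8.0 CPM in knockout-labelled replicates 1 to 4, against 7.1, 0.9 and 10.5 CPM in wild-type-labelled replicates 1 to 3. Replicate 2 of each group was low, and the amount of renal pelvis in each sample is not given in the labels. Adipocyte markers (6 genes) summed to at most 0.4 CPM in knockout-labelled and 0.5 CPM in wild-type-labelled libraries, with Adipoq at 0 counts in all 7 libraries.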
